A study of Mus musculus with 23 samples.

Results

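The single mouse bone marrow-derived mesenchymal stem cells (mMSCs) described here were divided by their level of Il6, the gene of the cytokine interleukin-6. Of the 16 single mMSCs, 7 had Il6 at 10 FPKM or more and are called Il6 cells, and 7 had Il6 listed at 0 and are called cells without Il6. The 2 cells in between, mMSC4 and mMSC7, were left out of both groups, so that 14 of the 23 libraries of the series entered the comparison. FPKM, the unit of all levels here, is the number of sequenced fragments of a gene scaled by its exon length and by the mapped reads of the library. The series also holds 5 single cells of the mouse cardiomyocyte line HL-1 (HL1cm) and a bulk library of each cell type, named mMSC-PC and HL1cm-PC (PC for population control). All mMSCs were of the strain C57BL/6J, came by the methods from male mice 3 months of age, were purchased, and were used untreated at passages 6 to 11. They were grown on gelatin in medium with serum, and single live cells of 17 to 25 micrometres were chosen on a Fluidigm C1 chip. Both groups share all of this. No source used here gives the passage, culture or animal of a single cell, so the cells count as 1 sample. The groups were also cut from a measured value, and therefore no test was made between them.

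Interleukin-6 is a secreted cytokine that acts on immune, liver and stromal cells. It binds its receptor (Il6ra) on the cell surface or in soluble form, and the pair then recruits the shared signalling chain gp130 (Il6st), which acts through Jak kinases, Stat3 and the phosphatase Shp2 (Ptpn11). MSCs are known as a source of the cytokine in bone marrow. Its promoter is known to be bound by NF-kB, C/EBP-beta (Cebpb), AP-1 and CREB.

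Il6 lies on chromosome 5, bases 30013114 to 30019975 of GRCm38.p6 (mm10). Its promoter is shown because the factors known to act on it are among the genes compared. Those of Sulf2 and Pdgfc are shown beside it because these genes were separated completely between the groups, in opposite directions. Each line gives the 250 bases before the RefSeq start (Il6 at chr5:30012864-30013113 on the plus strand, Sulf2 at chr2:166155684-166155933 on the minus strand, Pdgfc at chr3:81036166-81036415 on the plus strand), read along the gene. Capitals mark matches to 4 motifs.
Il6: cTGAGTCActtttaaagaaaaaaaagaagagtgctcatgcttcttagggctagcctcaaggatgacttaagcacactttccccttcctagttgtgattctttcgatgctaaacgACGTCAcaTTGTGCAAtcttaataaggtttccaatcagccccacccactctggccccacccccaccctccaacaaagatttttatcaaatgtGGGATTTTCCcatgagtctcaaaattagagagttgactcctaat
Sulf2: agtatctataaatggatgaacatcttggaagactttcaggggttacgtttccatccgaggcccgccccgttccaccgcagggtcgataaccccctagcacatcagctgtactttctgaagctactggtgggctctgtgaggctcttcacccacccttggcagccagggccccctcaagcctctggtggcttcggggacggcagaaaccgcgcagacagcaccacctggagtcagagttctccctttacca
Pdgfc: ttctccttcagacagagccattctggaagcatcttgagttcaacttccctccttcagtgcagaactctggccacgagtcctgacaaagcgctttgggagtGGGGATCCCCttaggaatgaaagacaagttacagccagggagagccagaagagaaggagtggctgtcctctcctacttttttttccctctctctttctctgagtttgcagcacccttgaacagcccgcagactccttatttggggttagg
The motifs were the kappa B consensus of NF-kB, TTGCNNAA for C/EBP, TGANTCA for AP-1 and the core site TGACGT of the cyclic AMP response element, each searched on both strands in windows of 300 bases that reach 50 bases past the start. The Il6 window held 1 match to each of the 4, with no overlap between them. The AP-1 match lay at bases -249 to -243 from the start, the core site at -136 to -131 and the C/EBP match at -128 to -121, these last 2 on the opposite strand. The kappa B match GGGATTTTCC lay at -44 to -35. Of all 32851 promoter windows, 4.51% held the kappa B consensus, 10.8% the C/EBP motif, 7.81% the AP-1 motif and 7.51% the core site. The Pdgfc window held the kappa B match GGGGATCCCC, which reads the same on both strands, and the Sulf2 window held none of the 4. Sulf2 has 2 windows, and the other is not shown or described here. A match describes the letters only.

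Il6 was at 59.9 FPKM in mMSC3, 145 in mMSC5, 163 in mMSC6, 204 in mMSC11, 63.0 in mMSC12, 49.1 in mMSC13 and 132 in mMSC15. It was listed at 0 in mMSC1, mMSC2, mMSC8, mMSC9, mMSC10, mMSC14 and mMSC16. The nearest cell inside the limit was thus mMSC13, at 49.1 FPKM, and the nearest outside was mMSC4, at 7.83 FPKM, followed by mMSC7 at 7.38. The mMSC-PC library had 73.7 FPKM, and all HL1cm libraries were listed at 0. These values chose the groups and are given as a description.

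**Figure D1:**
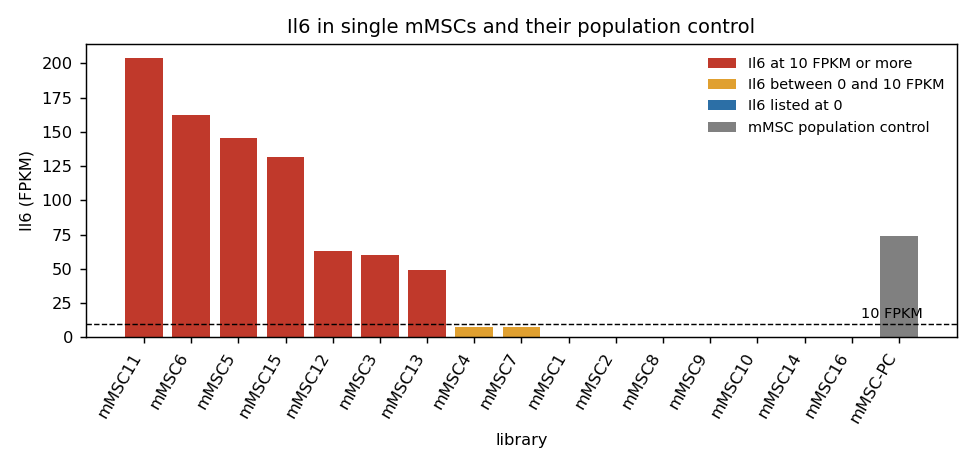
Il6 in FPKM (y axis, linear) in each of the 16 single mMSCs and in the mMSC population control (x axis). The 7 Il6 cells lie between 49.1 and 204 FPKM, 2 cells lie under the dashed limit of 10 FPKM, and 7 cells are listed at 0.

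Depth is represented here by how many genes reached 1 FPKM in a cell, since the file holds no counts. This number had a lowest, median and highest value of 5835, 7019 and 7234 in the Il6 cells and of 5175, 6814 and 7169 in the cells without Il6, with mMSC15 and mMSC9 the lowest. A value of 0 can be a failed estimate, as Canx (calnexin), a chaperone gene of general use, was listed at 0 in mMSC12 and was at 809 FPKM or more in the other 13 cells. Of 10 mesenchymal markers, 9 passed the filter on low values and none of these differed 2-fold between the groups (median difference 0.04). Thy1 was listed at 0 in all 14 cells. Ptprc and the 10 other macrophage markers gave 2 genes that passed (Csf1r and Cd14) and 6 at 0 in all 14 cells, and of 8 endothelial markers none passed and 7 were at 0 throughout. Csf1r was above 0 in 2 Il6 cells and 4 cells without Il6, with a difference of mean log2 FPKM, Il6 cells minus cells without Il6, of -0.97. Cd14 was above 0 in 7 and 6 (0.18), with up to 337 FPKM. Of 9 cardiomyocyte markers, 2 passed, Myl7 above 0 in 2 Il6 cells and 3 cells without Il6 (-1.24) and Tnnt2 in 3 and 2 (0.61).

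Across the transcriptome, more genes stood apart between the groups by mean level than by complete separation. Differences are between the means of log2 FPKM, with values under 1 set to 1, Il6 cells minus cells without Il6. Of 8833 genes that reached 1 FPKM in at least 4 of the 14 cells, 1060 (12%) were at least 2-fold higher and 955 (10.8%) at least 2-fold lower in the Il6 cells, with a median difference over all of 0.03 and 51.8% of genes above 0. The counts of each gene list are to be read against these shares. In 31 of the higher and 20 of the lower genes, every cell of the other group was listed at 0. A total of 2 genes (0.0226%) had all Il6 cells above all cells without Il6, and 4 (0.0453%) had all of them below. How many genes another split of the 14 cells would separate was not tested. Separation is therefore given as a description and does not tie a gene to Il6. With values under 10 FPKM set to 10 in place of 1, 132 genes were 2-fold higher and 140 lower.

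The 2 separated genes on the high side were Sulf2 and Ergic2. Sulf2 encodes an extracellular enzyme that removes 6-O-sulphates from heparan sulphate, the sugar chain to which many growth factors and cytokines bind. It lies on chromosome 2, bases 166073899 to 166155683. Its lowest, median and highest values were 11.7, 33.1 and 54.2 FPKM in the Il6 cells and 0, 3.57 and 7.08 FPKM in the cells without Il6, a difference of 3.08. The lowest Il6 cell, mMSC3, was still above mMSC14, the highest cell without Il6. The 2 cells with little Il6 were both above all cells without Il6. At 38.3 FPKM, mMSC4 was within the range of the Il6 cells, while mMSC7, at 10.2 FPKM, lay between the 2 ranges. Ergic2, a gene of transport between the endoplasmic reticulum and the Golgi apparatus, lies on chromosome 6, bases 148179318 to 148212388. It was at 167, 206 and 297 FPKM in the Il6 cells against 30.5, 118 and 157 FPKM, a difference of 1.06. The cells in between had 162 FPKM (mMSC4) and 129 FPKM (mMSC7), the first above and the second within the range of the cells without Il6. Without mMSC2, the lowest cell of the other group, the difference was 0.77 (0.98 without mMSC11).

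Of the 4 separated genes on the low side, the values of 3 are given, Olfm1, Pdgfc and Hbegf. Separation rested in part on the scale. The groups overlapped for Hbegf when libraries were rescaled to the same sum or by the median ratio, for Ergic2 by the median ratio, and for Olfm1 with values under 10 FPKM set to 10. Olfm1 (chromosome 2, bases 28193093 to 28230736), the gene of a secreted glycoprotein best known from neural tissue, was listed at 0 in all 7 Il6 cells, in mMSC4, in mMSC7 and in mMSC-PC. In the cells without Il6 it was at 2.12, 7.65 and 22.4 FPKM, so all 7 of these were above 0 at low levels.
The other two were growth factor genes. Pdgfc (chromosome 3, bases 81036416 to 81214040) encodes a ligand of the PDGF receptors, and its values were 0, 4.93 and 9.27 FPKM in the Il6 cells against 11.7, 21.0 and 32.0 FPKM, a difference of -2.46. The cells in between, at 26.2 FPKM in mMSC4 and 14.8 in mMSC7, lay with the cells without Il6. Hbegf, the gene of a ligand of the EGF receptor, was at 4.82, 18.2 and 26.3 FPKM against 26.8, 34.0 and 62.1 FPKM, a difference of -1.32. Its groups touched, with 26.3 FPKM in the highest Il6 cell and 26.8 in the lowest cell without Il6, while mMSC4 had 7.71 and mMSC7 80.5 FPKM.

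**Figure D2:**
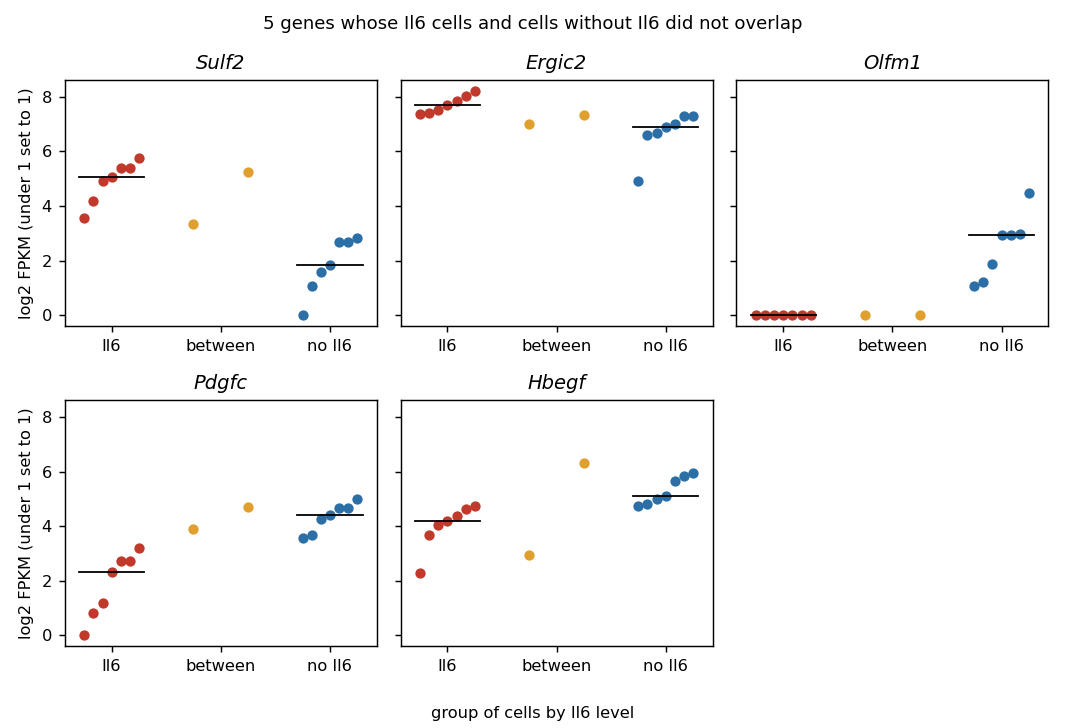
Levels of 5 of the 6 separated genes (y axis, log2 FPKM, values under 1 set to 1) in the 7 Il6 cells, the 2 cells in between and the 7 cells without Il6 (x axis). Each point is 1 cell and each black line a group median. Sulf2 and Ergic2 are higher in every Il6 cell, with Sulf2 at 11.7 FPKM or more, and Olfm1 is listed at 0 in all 7 of them.

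Beyond complete separation, genes were ordered by the 49 pairs made of 1 Il6 cell and 1 cell without Il6. These pairs share cells and are no replicates. The Il6 cell was higher in at least 90% of pairs (ties counted as 0.5) for 34 genes (0.385%) and in at most 10% for 31 genes (0.351%). What other splits of the cells would give was not tested here either. The 12 genes first in this order on the high side, Sulf2 and Ergic2 among them, differed by 1.06 to 3.41. The transcription factor gene Sp1 was at 21.7, 31.7 and 38.2 FPKM in the Il6 cells and at 1.64, 11.5 and 22.9 FPKM in the cells without Il6, and the Il6 cell was higher in 48 of 49 pairs. Far1, an enzyme of ether lipid synthesis, was at 22.2, 71.2 and 103 FPKM against 13, 15.4 and 37.6 FPKM, also higher in 48 pairs. Both were above 0 in all 14 cells, so that their order does not rest on missing values. AW549877, a gene known only by its clone name, was higher in 48 pairs too, with a difference of 2.62 that comes from values of at most 21.4 FPKM.
Ndn encodes necdin, a growth suppressor of the MAGE family expressed from the paternal allele. It was at 11.6, 36.9 and 47.2 FPKM in the Il6 cells and at 0, 2.54 and 17.4 FPKM in the cells without Il6, a difference of 3.41 with 47 of 49 pairs higher. Of the latter, only mMSC16 reached the range of the Il6 cells. The receptor gene S1pr1, through which sphingosine-1-phosphate guides cell traffic, was at 63.9, 93.8 and 162 FPKM against 24.0, 37.3 and 76.8 FPKM (difference 1.20, 47 pairs). The groups overlapped only between 63.9 and 76.8 FPKM. The other 5 genes were Slc30a4 (a zinc transporter, 3.15), Zfp386 (a zinc finger protein, 2.49), Efha1 (a regulator of mitochondrial calcium uptake, 2.44), Dusp14 (a phosphatase of MAP kinases, 2.16) and Frg1 (2.13), each higher in 47 pairs.

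On the low side, the 8 genes that followed the 4 separated ones included 3 of the mitochondrial respiratory chain. Ndufb10, a subunit of complex I, was at 34.1, 95.0 and 119 FPKM in the Il6 cells and at 114, 209 and 383 FPKM in the cells without Il6 (difference -1.49, lower in 48 of 49 pairs). Uqcrh and Cyc1, subunits of complex III, had medians of 28.4 and 20.1 FPKM in the Il6 cells and of 164 and 55.6 FPKM in the cells without Il6, with differences of -2.72 and -2.64. All 3 were above 0 in every cell without Il6, while Uqcrh was listed at 0 in 1 and Cyc1 in 2 Il6 cells. As a group the nuclear-encoded genes of the chain did not stand apart. Of 60 that passed, in a list added after these values were seen, 7 were 2-fold lower (11.7%, near the 10.8% of all genes) and 2 higher (3.33%, beside 12%), with a median difference of -0.07. The mitochondrial ribosomal gene Mrpl43 (-2.62), the calcium-dependent kinase gene Camk2g (-2.44), the Polycomb gene Mtf2 (-2.39), the signal peptide peptidase gene H13 (-1.66) and the coactivator subunit gene Tada1 (-2.76) made up the rest. The cell mMSC11 had the lowest H13 of the Il6 cells, at 1.17 FPKM, and without it the difference was -1.10.
Of these 12 higher genes, the level of mMSC4 was nearer to the mean of the Il6 cells in 9 and that of mMSC7 in 5. Of the 12 lower genes it was nearer to that mean in 4 for mMSC4 and in 3 for mMSC7. The cells with Il6 at 7 to 8 FPKM thus did not lie with one group throughout.

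The largest differences of means came from genes listed at 0 or near it in part of the cells. Mt2, a metallothionein that binds zinc and copper, was above 0 in 6 Il6 cells and 2 cells without Il6, with medians of 125 and 0 FPKM and a difference of 4.37. Its highest values were 550 FPKM in mMSC15 and, in the other group, 214 FPKM in mMSC16, so the groups overlapped. Next came Crip2 (a LIM domain protein, 3.49), Srd5a3 (an enzyme of dolichol synthesis, 3.43), Ndn (3.41) and Gm19705 (3.30). The lowest were the ribosomal protein genes Rpl26 (-4.70) and Rpl34 (-4.61), whose values are uncertain. Such genes have near-identical copies elsewhere in the genome, and whether shared reads affected these values was not tested. Rpl26 was under 2 FPKM in 4 Il6 cells and between 332 and 591 FPKM in the other 3. Of 81 ribosomal protein genes that passed, a list likewise added afterwards, 5 were 2-fold lower (6.17%, beside 10.8% of all genes). Only 1 was higher (1.23%, beside 12%). The median difference of this list was -0.22, with a range of -0.32 to -0.09 over all other settings, and 61 of its genes were below 0. Ddt, a relative of the cytokine Mif, was above 0 in 2 Il6 cells and in all 7 cells without Il6 (-4.57), and Ifi30, a lysosomal thiol reductase, in 2 and 6 (-3.36). Pold2, a subunit of DNA polymerase delta, was listed at 0 in all 7 Il6 cells and was above 0 in 5 cells without Il6, with 78.3 FPKM at most.

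Of 9 genes of the Il6 cytokine family, Il6 left aside, 4 passed the filter and 1 of these was 2-fold higher, with a median difference of -0.24. That was Lif, with a difference of 1.02, while Il11 differed by -0.56 and Clcf1 by -0.39. Lif was above 0 in 5 Il6 cells and 3 cells without Il6, and its difference was 0.51 without mMSC11 and under 1 without any 1 of 8 cells. The receptor Il6ra was above 0 in 2 of the 14 cells, both of them Il6 cells, at 1.71 FPKM in mMSC6 and 8.29 in mMSC12, and did not pass. Of the 16 receptor and signalling genes, 10 passed, 2 were 2-fold higher and 1 lower (median difference 0.36). These are 20% and 10% of the list, beside 12% and 10.8% of all genes. Ptpn11 was at 4.97, 11.8 and 18.8 FPKM in the Il6 cells and at 0.901, 3.49 and 8.21 FPKM in the cells without Il6, a difference of 1.67 with 46 of 49 pairs higher. It was above 0 in all 14 cells, and mMSC9 and mMSC10 alone among the cells without Il6, at 8.21 and 5.18 FPKM, exceeded the lowest Il6 cell. Il6st was at 0.650, 6.28 and 17.7 FPKM against 0, 2.67 and 7.20 FPKM (1.33), with overlap. Adam17, the protease that sheds the receptor, was above 0 in 4 Il6 cells and all 7 cells without Il6 (-1.17), and was under 2-fold without any 1 of 4 cells (mMSC11, mMSC12, mMSC13 or mMSC14). Stat3 itself, chosen after its values were seen, had medians of 21.7 and 13.1 FPKM and a difference of 0.16.
Among 18 target genes of Stat3, 9 passed, with 2 at 2-fold higher, 2 at 2-fold lower and a median difference of -0.53. These are 22.2% of the list each way, beside 12% and 10.8% of all genes. Hif1a, a factor of the response to low oxygen, was at 16.7, 27.7 and 40.0 FPKM in the Il6 cells and at 0, 9.57 and 30.3 FPKM in the cells without Il6 (1.83, higher in 43 pairs). Mcl1, which protects cells from apoptosis, differed by 1.04, and lay under 2-fold without any 1 of 5 cells (0.80 without mMSC10 at the lowest). Junb differed by -1.60 (-0.95 without mMSC1) and Myc by -1.36 (-0.63 without mMSC15). Socs3, the feedback inhibitor and a direct Stat3 target, was above 0 in 2 Il6 cells and in no cell without Il6.

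Among the C/EBP genes, whose beta member is known at the Il6 promoter, the largest difference was in Cebpb. It was at 26.3, 115 and 413 FPKM in the Il6 cells and at 0, 26.1 and 162 FPKM in the cells without Il6, a difference of 3.27 with 39 of 49 pairs higher. It was above 0 in 7 of 7 Il6 cells and in 4 of 7 cells without Il6, and was listed at 0 in mMSC1, mMSC2 and mMSC9. The groups overlapped, since mMSC10 had 162 FPKM, above the median of the Il6 cells, and mMSC14 had 115 FPKM. Both cells in between had it too, with 80.4 FPKM for mMSC4 and 224 FPKM for mMSC7. Of the 5 C/EBP family genes, 3 passed, and the other 2 had differences of 0.81 (Ddit3) and 0.26 (Cebpg).
Of the 20 genes of NF-kB subunits and regulators, 17 passed, of which 4 were 2-fold higher and 1 lower (23.5% and 5.88%, beside 12% and 10.8% of all genes, with a median difference of 0.37). Birc2, a ubiquitin ligase of the pathway, was above 0 in 6 Il6 cells and 2 cells without Il6 (1.93), and Nfkb1, the p50 subunit gene, in 6 and 3 (1.60). Chuk, the kinase IKK-alpha, differed by 1.49, and Nfkbiz, a nuclear partner of p50 known for its part in Il6 induction and chosen after its values were seen, by 1.36 (39 pairs higher). The inhibitor gene Nfkbib was above 0 in 1 Il6 cell and 6 cells without Il6 (-2.44). All of these overlapped between the groups, and with a limit of 10 FPKM the median difference of the list was 0.01. Of 18 genes of innate sensing and IL-1 or TNF receptors, 15 passed, 4 were 2-fold higher (2 without mMSC1, mMSC5, mMSC6 or mMSC16) and 1 lower. These are 26.7% and 6.67% of that list, beside 12% and 10.8% of all genes. Ly96, the partner of Tlr4 in sensing endotoxin, was at 9.09, 49.0 and 113 FPKM against 0, 19.2 and 88.5 FPKM (1.41), and at a difference of 0.75 without mMSC1 or without mMSC16. The other genes past 2-fold were Irak2 (1.31), Ticam1 (1.29), Tlr3 (1.02, chosen after its values were seen) and Il1rap (-1.30), each of which came under 2-fold without certain single cells (Irak2 without any 1 of 3, to 0.93 without mMSC15, Ticam1 without either of 2, to 0.87 without mMSC6, Tlr3 without any 1 of 5, to 0.59 at the lowest, and Il1rap without mMSC8, to -0.97).

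AP-1 and immediate early genes, which cells transcribe quickly after a stimulus, were on both sides. Of 25 genes, 19 passed, and 7 were 2-fold higher and 4 lower (2 without mMSC1 or mMSC15), with a median difference of 0.59. These are 36.8% and 21.1% of the list, beside 12% and 10.8% of all genes. The number of higher genes was 5 to 7 when each cell was left out in turn. With values under 10 FPKM set to 10, 1 gene of the list was higher and 1 lower. Klf4 was at 2.21, 39.3 and 138 FPKM in the Il6 cells and at 0, 4.31 and 18.3 FPKM in the cells without Il6, a difference of 3.21 with 44 of 49 pairs higher. The Il6 cells mMSC11 and mMSC13, at 12.9 and 2.21 FPKM, lay within the range of the other group. Atf3, a factor of stress responses, was above 0 in 5 Il6 cells and in 1 cell without Il6, at 3.22 FPKM in mMSC10, a difference of 2.90. The orphan receptor gene Nr4a1 was above 0 in 6 and 3 cells (2.51), and Egr1 in 5 and 3 (1.75).
Genes chosen after their values were seen filled out the list. Dusp1 (1.60), Fosb (1.20) and Ier3 (1.10) were 2-fold higher, while Zfp36 (-1.60) and Fosl1 (-1.10) were lower beside Junb and Myc. Zfp36 encodes tristetraprolin, which promotes the decay of cytokine mRNAs, and was above 0 in 2 Il6 cells and 5 cells without Il6. Fos, the best known immediate early gene, was above 0 in 1 of the 14 cells and did not pass.

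**Figure D3:**
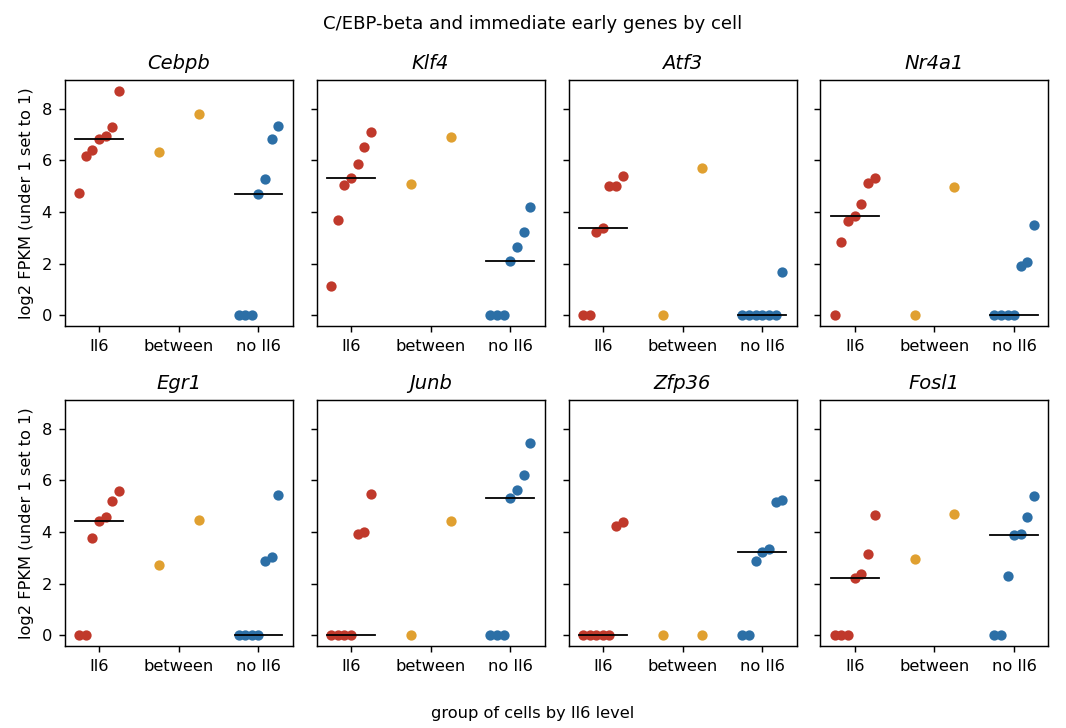
Levels of Cebpb and of 7 immediate early genes (y axis, log2 FPKM, values under 1 set to 1) in the Il6 cells, the cells in between and the cells without Il6 (x axis). Points are cells and black lines group medians. Cebpb is listed at 0 in 3 cells without Il6 and in no Il6 cell, Atf3 is above 0 in 5 Il6 cells and 1 cell without Il6, and Zfp36 is above 0 in 2 and 5.

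Of 21 chemokine genes 9 passed, with 3 at 2-fold higher and none lower (median difference 0.43). These are 33.3% and 0% of the list, beside 12% and 10.8% of all genes. The median difference ranged from -0.02 to 0.73 when each cell was left out in turn. Ccl2, one of the most abundant chemokine transcripts of these cells, chosen after its values were seen, was at 586, 1398 and 10038 FPKM in the Il6 cells and at 463, 1001 and 14527 FPKM in the cells without Il6 (0.27). Cxcl12, which holds blood stem cells in the marrow, was at 17.5, 45.6 and 357 FPKM against 0, 29.4 and 168 FPKM (1.69, or 1.00 without mMSC9), and Ccl8 was above 0 in 4 and 1 cells (1.99). Ccl5 differed by 1.04 with a lower median in the Il6 cells, and by -0.68 without mMSC8, so it has no direction here. Of 18 interleukin and colony stimulating factor genes, 7 passed and Il15, a growth factor of NK and T cells, was 2-fold higher, with up to 4 genes higher when 1 cell (mMSC13) was left out. Il15 was above 0 in 6 Il6 cells and 3 cells without Il6, with medians of 28.0 and 0 FPKM (2.42).
Of 18 genes through which MSCs are known to restrain immune cells, 11 passed and 1 was 2-fold higher, Cd274 (the gene of PD-L1, 1.18, under 2-fold without any 1 of 6 cells, and 0.73 without mMSC15). Its medians, 3.45 and 3.30 FPKM, were close. Ptgs2, the cyclooxygenase of prostaglandin E2 synthesis, chosen after its values were seen, was at 119 FPKM or more in all 14 cells and differed by 0.33. All 20 interferon response genes passed, with 2 at 2-fold higher (Rsad2, 1.81, and Mx1, 1.32), none lower and a median difference of 0.02. The 2 are 10% of the list, near the 12% of all genes. Without mMSC8, Rsad2 differed by 1.05, and Mx1 was under 2-fold without any 1 of 5 cells (0.94 without mMSC15).

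The list that lay lowest in the Il6 cells was that of S phase genes, which copy DNA. Of 26 genes 25 passed, and 14 were 2-fold lower against 1 higher (Rfc2, 1.57, chosen after its values were seen and under 2-fold without mMSC9, mMSC10 or mMSC16), with a median difference of -1.19. The share of lower genes was 56%, beside 10.8% and a median of 0.03 over all genes. With values under 10 FPKM set to 10, 4 S phase genes were lower and none higher (median difference -0.41), beside 1.58% lower and a median of 0 over all genes. Cdc6, which loads the replicative helicase, was above 0 in 1 Il6 cell and 5 cells without Il6 (-2.64), and cyclin E1 (Ccne1) in 3 and 6 (-2.56). Uhrf1, which maintains DNA methylation after replication, was above 0 in 4 Il6 cells and in all 7 cells without Il6 (-2.21), and Gins2 in 4 and 6 (-2.07). The other 10 lower genes, looked up after the values were seen, differed by -2.04 (Mcm7) to -1.10 (Ccne2), among them the replicative helicase genes Mcm2 (-1.63), Mcm3 (-1.55) and Mcm4 (-1.54). Some came under 2-fold without single cells, Rrm1 without any 1 of 5 (to -0.75), Tyms without any 1 of 4 (to -0.94) and Rrm2 without mMSC13 (-0.91). The number of lower S phase genes was 12 to 18 when each cell was left out in turn. A further 10 genes differed by less than 2-fold. Of these Pcna, the sliding clamp of DNA polymerase, likewise chosen afterwards, was at 27.2, 140 and 355 FPKM against 36.7, 146 and 562 FPKM (-0.41).
By cell, the mean log2 FPKM of the S phase list was 1.27 in mMSC3, 1.13 in mMSC12, 1.43 in mMSC13 and 1.37 in mMSC15, below every cell without Il6. The other 3 Il6 cells had 3.01 (mMSC5), 5.14 (mMSC6) and 5.52 (mMSC11), and were within the range of the cells without Il6, whose lowest, median and highest levels were 1.75 (mMSC2), 3.84 (mMSC16) and 5.95 (mMSC1). The groups therefore overlapped, with 4 of 7 Il6 cells below the other group.
The G2/M list, of genes used in mitosis, had 6 of 33 passed genes 2-fold lower and none higher, with a median difference of -0.42 (18.2% lower, beside 10.8% of all genes). With values under 10 FPKM set to 10, none was 2-fold lower. Among the 6, Ckap2l differed by -2.06 and the centromere histone gene Cenpa by -1.95. This list depended on single cells. The number of lower genes was 15 without mMSC11, the Il6 cell with the highest level, 13 without mMSC9, 12 without mMSC2 or mMSC10 and 11 without mMSC5, and it was 2 without mMSC8 or mMSC14 and 3 without mMSC1, mMSC3, mMSC12, mMSC13 or mMSC15. Its median difference was 0.06 without mMSC8. At least 50% of the list was at 1 FPKM or more in 3 Il6 cells (mMSC5, mMSC6, mMSC11) and in 4 cells without Il6 (mMSC1, mMSC8, mMSC14, mMSC16). When these 7 cells were left out, 9 S phase genes passed, of which 3 were lower and 2 higher (median difference -0.18). In the same comparison of 4 with 3 cells, the median difference was 0.22 for the AP-1 list, -0.57 for the C/EBP list and -1.29 for the chemokines.

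**Figure D4:**
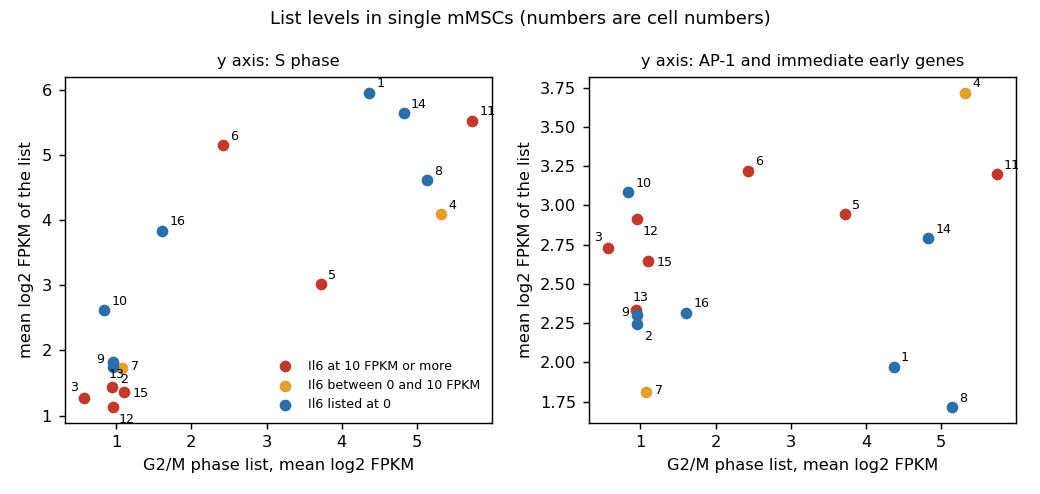
Mean log2 FPKM of the S phase list (left panel, y axis) and of the AP-1 and immediate early gene list (right panel, y axis) against that of the G2/M list (x axis) in each single mMSC, numbered and coloured by Il6 level. The Il6 cells 3, 12, 13 and 15 have S phase levels of 1.13 to 1.43, and the Il6 cells 5, 6 and 11 lie at 3.01 to 5.52.

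Of 15 genes of CDK inhibitors, p53 and D cyclins, 10 passed, 1 was 2-fold higher and none lower. That gene was Cdkn2c, the inhibitor p18, above 0 in 6 Il6 cells and in 1 cell without Il6, with medians of 11.7 and 0 FPKM (2.88, 39 pairs higher). The D cyclin gene Ccnd1 differed by -0.91 and Cdkn1b (p27) by -0.91.

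The adipogenic, osteogenic and chondrogenic lists each held at most 2 genes past 2-fold, of 8, 6 and 3 that passed. Their shares rest on few genes. The smooth muscle genes lay lower by mean level in the Il6 cells, with few past 2-fold and with overlap between the groups. Of 8 adipogenic genes that passed, out of 15, 2 were 2-fold higher (25%, beside 12% of all genes) and none lower. Plin2, which coats lipid droplets, was at 81.9, 195 and 412 FPKM in the Il6 cells and at 20.1, 97.8 and 145 FPKM in the cells without Il6 (1.45, higher in 41 pairs), and was above 0 in all 14 cells. Fabp4 was above 0 in 4 Il6 cells and 1 cell without Il6 (2.38), while Pparg differed by -0.58. Of 6 osteogenic genes that passed, out of 14, Tnfrsf11b (osteoprotegerin, 1.47) was 2-fold higher and Msx2 (-2.24) lower. These are 16.7% of the list each way, beside 12% and 10.8% of all genes. The master regulator Runx2 differed by 0.34. None of 3 chondrogenic genes that passed, out of 10, differed 2-fold. Of 14 smooth muscle genes, 10 passed and 3 were 2-fold lower, Myl9 (-1.59), Tpm2 (-1.28) and Cnn1 (-1.26). That is 30% beside 10.8% of all genes, and 9 of the 10 differences were below 0, with a median of -0.79 that ranged from -1.22 to -0.41 over all other settings. By cell, the lowest, median and highest mean log2 FPKM of this list were 3.73, 4.51 and 6.69 in the Il6 cells. They were 4.17, 5.93 and 6.40 in the cells without Il6. The groups overlapped, and the highest level was in the Il6 cell mMSC3. Without mMSC5 Myl9 differed by -0.53 and Cnn1 by -0.72 (as without mMSC12), and without mMSC13 Tpm2 differed by -0.52. Without mMSC3, 6 of the smooth muscle genes were lower, and 5 without mMSC1 or without mMSC9.
Of 22 extracellular matrix genes, 20 passed and 2 were lower, both chains of collagen VI (Col6a2, -1.52, and Col6a1, -1.09, under 2-fold without any 1 of 5 cells and -0.79 without mMSC16). The 2 are 10% of the list, near the 10.8% of all genes. Mmp14, the membrane-bound protease that activates pro-MMP2, was at 9.57, 28.4 and 94.3 FPKM in the Il6 cells and at 3.14, 9.38 and 41.4 FPKM in the cells without Il6 (1.74, higher in 42 pairs). It was the 1 of 8 metalloproteinase and Timp genes that passed, out of 15, to differ 2-fold. Among 13 growth factor and IGF genes that passed, out of 22, Igfbp6 (1.52) and Wisp2 (1.52, 0.99 without mMSC1, mMSC9 or mMSC14) were higher. The matricellular genes Cyr61 (-2.33, -1.51 without mMSC15) and Ctgf (-1.41, -0.56 without mMSC13) were lower.

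**Figure D5:**
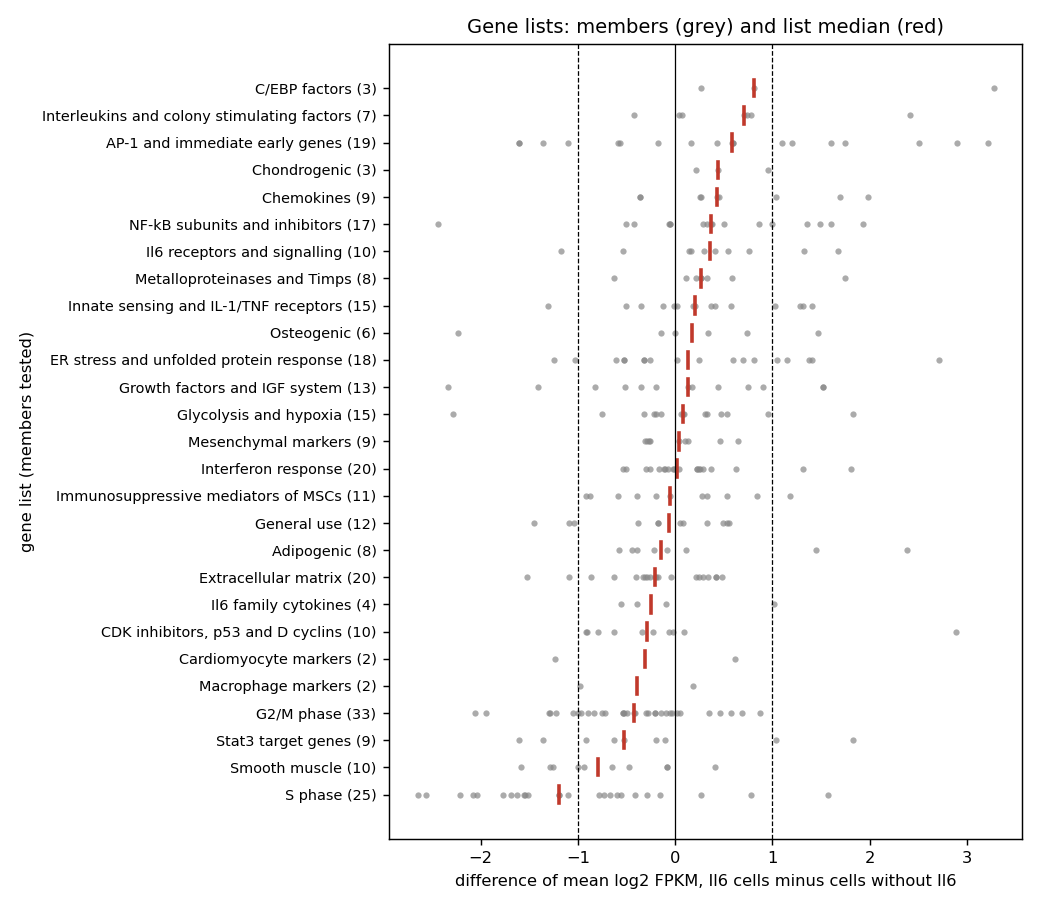
Differences of mean log2 FPKM between Il6 cells and cells without Il6 (x axis) for the members of each gene list that passed the filter on low values (grey points) and their median (red line). Dashed lines mark 2-fold. The S phase median lies lowest, at -1.19, and the C/EBP median highest, at 0.81, over 3 genes.

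All 18 genes of endoplasmic reticulum stress and the unfolded protein response passed, with 5 at 2-fold higher (27.8%, beside 12% of all genes) and 2 lower (11.1%, near the 10.8% of all genes), and a median difference of 0.14. The number of higher genes was 1 without mMSC13 and 3 without mMSC3 or mMSC9. Trib3, a pseudokinase gene induced by Atf4, was above 0 in 4 Il6 cells, with 83.5 FPKM at most in mMSC13, and was listed at 0 in all 7 cells without Il6. It passed the filter only through these 4 cells, and did not pass without any 1 of them. Atf6, a sensor of unfolded protein, was above 0 in 6 and 3 cells (1.41, 0.96 without mMSC13) and Ppp1r15a in 6 and 5 (1.38, 0.81 without mMSC9 or mMSC14). Xbp1 lay the other way (-1.25, -0.85 without mMSC5 or mMSC6 and -0.93 without mMSC9). Of 15 glycolysis and hypoxia genes that passed, out of 19, Hif1a was 2-fold higher and Eno1 lower (-2.28). Eno1 has processed copies that can share its reads, which was not tested, so its value is uncertain. It differed by -1.45 without mMSC3 or mMSC15. Of 12 genes of general use, 3 were lower (25%, beside 10.8% of all genes), Canx (-1.45), Tubb5 (-1.09) and Tbp (-1.04). Without mMSC12, the cell in which it was listed at 0, Canx differed by -0.0038. Tubb5 differed by -0.72 without mMSC13 (under 2-fold without any 1 of 5 cells), and Tbp by -0.60 without mMSC11 or mMSC12 (under 2-fold without any 1 of 6). Gapdh, chosen after its values were seen, was at 157, 224 and 286 FPKM in the Il6 cells and at 160, 192 and 319 FPKM in the cells without Il6 (0.05).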

How the data were processed

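Single-cell RNA-seq was deposited as 1 table of 23284 genes and 23 libraries. By the labels and methods, the authors aligned paired reads of 75 bases to mm10 with TopHat2 2.0.12 and estimated abundance with Cufflinks 2.2.1, and deposited FPKM values without counts. The reads behind a value are therefore not known from the table, the alignment totals that the study lists per cell were not used here, and no count model, interval or limit was computed. No 2 libraries were identical. The file had turned 25 gene symbols into dates.

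After 759 genes with symbols starting Mir or Snor were left out, FPKM under 1 was set to 1 and log2 taken. A floor understates differences of low genes. Genes that reached 1 FPKM in at least 4 of the 14 cells entered, Il6 excepted. Groups were compared by the difference of means, by the 49 pairs of cells and by overlap. No test was made, since the cells are 1 sample.

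The cells, the 28 gene lists and the comparisons were chosen with earlier results of these data known, and 2 lists were added after the values were seen. Named were the 12 genes in each direction past 2-fold with the largest share of pairs, the 5 with the largest difference, all genes without overlap and up to 4 members of each list by absolute difference, of which 2 genes are not reported here. Genes chosen later, from their values, are marked, and also include Socs3, Il6ra, Fos, Thy1 and Ptprc. Nothing was read from motif counts in gene sets, because 79.9% of the genes had a RefSeq promoter window. The 13 other settings tried changed the floor, filter, scaling, mean, grouping and cells. The method was tested on simulated data, with differences planted only in genes of high level. Missing values were not simulated, so genes absent in part of the cells were not covered by it. Python 3.11.15, matplotlib 3.10.9, scipy 1.17.1, pandas 2.3.3 and numpy 2.4.6 were used.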

Additional observations from a re-analysis of the deposited data

Results flagged for a closer look

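In 14 of 125 group values examined (11.2%), a single cell lay far from the 6 others of its group. Chance marks about 1 in 20 where values are independent and not held at a floor. The values here share cells and many lie at the floor, so no excess is read from this share. Without Il6, mMSC9 had the fewest genes at 1 FPKM or more (5175). Of the mean log2 FPKM of gene lists, the NF-kB list was highest in mMSC8 (2.52), the chemokine list in mMSC10 (6.82) and the immunosuppressive list lowest in mMSC1 (3.99), all cells without Il6, while the ribosomal protein list was highest in the Il6 cell mMSC12 (9.64).

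On the log2 FPKM scale, cells without Il6 stood apart for Ergic2 (mMSC2 lowest, 4.93), AW549877 (mMSC10 highest, 2.46), Gm19705 (mMSC10 highest, 4.56, with the other 6 cells at 0), Frg1 (mMSC16 lowest, 0), Rpl26 (mMSC2 lowest, 0) and Rpl34 (mMSC16 lowest, 0). Il6 cells stood apart for Hbegf (mMSC15 lowest, 2.27), H13 (mMSC11 lowest, 0.23) and Mt2 (mMSC11 lowest, 0). Outside the compared cells, the mMSC population control had Il6 at 73.7 FPKM, against 0 in all HL1cm libraries.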

How the results depend on the processing

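No paired analysis was possible because the comparison lies within the cells of 1 type and rests on no test. The numbers of genes 2-fold higher and lower were 564 and 465 among genes that reached 1 FPKM in at least 10 cells (fewer genes tested), and 132 and 140 with values under 10 FPKM set to 10. Genes without overlap numbered 3 to 8 (higher) and 4 to 11 (lower) when each cell was left out in turn, since fewer cells overlap less. They numbered 11 and 8 without the cell with the fewest genes in each group, and 199 and 165 without the 7 cells with 50% of the G2/M list. With the cells in between counted as Il6 cells they were 1 and 1, and as cells without Il6 1 and 2. Genes without overlap were 4 (higher) and 4 (lower) with libraries rescaled to the same sum, and 1 and 3 by the median ratio. Without the 7 cells, the median differences were -0.57 (C/EBP), -1.29 (chemokines), -1.27 (chondrogenic), 2.24 (interleukins) and -0.41 (metalloproteinases). That of the C/EBP list was 2.04 among genes detected in at least 10 cells, that of the AP-1 list 0 by medians and 0.18 with the floor of 10, and that of the NF-kB list 0.0114 with that floor. The direction turned by medians for Canx (0.0905), Ccl5 (-0.95) and Myl9 (0.0589), without the 7 cells for Ccl5 (-1.32), Ly96 (-0.11), Myl9 (0.31) and Tnfrsf11b (-0.57), and without mMSC8 for Ccl5 (-0.68, with up to 1.63 when other cells were left out). The cause was not tested. Of the 93 named genes past 2-fold, 65 were past it without each cell in turn, wherever they passed the filter, and 28 were not. Trib3, among the 65, passed the filter in 10 of these comparisons and not without mMSC5, mMSC6, mMSC11 or mMSC13. List counts of 1 to 3 genes moved by at most 3 genes without 1 cell. The endothelial list gave no value. Depth limits all values near 1 FPKM.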
